A study of Mus musculus with 6 samples.

Results

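Semaphorins, plexins and neuropilins form a family of guidance ligands and receptors that shape the outflow tract and the myocardium. This account follows 10 of its genes in E12.5 mouse hearts: the ligand genes Sema3a, Sema3c, Sema3d and Sema6d, the plexin genes Plxna1, Plxna2, Plxna4 and Plxnd1, and the neuropilin genes Nrp1 and Nrp2. They were chosen by gene symbol, and all 10 were measured, each by 1 transcript cluster (the set of probes that reads 1 gene), among 19933 genes with a single symbol. The hearts were 3 labelled knockout (KO) for β1 integrin, encoded by Itgb1, and 3 labelled wild type (WT), all described as biological replicates at E12.5, which the submitters call a stage well ahead of visible dysfunction. The labels name no allele, strain, Cre driver or cell type of the deletion, and they do not say how many hearts went into a sample, so a p-value speaks of the spread among these 6 samples. Total RNA of each sample was read on its own Affymetrix Mouse Gene 1.0 ST array, and every value below is the deposited signal on the log2 scale unless it is called a difference, which is always KO minus WT.

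Class 3 semaphorins are secreted proteins that bind a neuropilin, and the neuropilin passes the signal on through a plexin that stands beside it in the membrane. Class 6 semaphorins stay in the membrane of the cell that makes them and bind A-type plexins directly. In the mouse, neural crest cells that carry plexin receptors enter the outflow tract, and loss of Sema3c, Plxnd1 or Nrp1 leaves the aorta and the pulmonary artery incompletely divided. Plexin signalling also lowers the adhesive activity of integrins on the cell surface.

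Promoters of 8 of the 10 genes were found in RefSeq for build GRCm38.p6, in 9 entries because Sema6d has 2 starts; Plxna1 and Plxna4 had none. Each entry runs from 250 bases before to 50 bases after the start. The entries of Sema3a and Sema6d are shown because these are the genes whose KO and WT hearts did not overlap, and those of Sema3c and Plxna2 because GATA6, a transcription factor of the outflow tract, is known from mouse and human work to act on these genes. Capitals mark the letters GATAA, the core that GATA factors read, and ACGTG, the core read by the factors of the response to low oxygen, on either strand; where both strands match at 1 place the matches overlap.
Sema3a, chr5:13396534-13396833, plus strand: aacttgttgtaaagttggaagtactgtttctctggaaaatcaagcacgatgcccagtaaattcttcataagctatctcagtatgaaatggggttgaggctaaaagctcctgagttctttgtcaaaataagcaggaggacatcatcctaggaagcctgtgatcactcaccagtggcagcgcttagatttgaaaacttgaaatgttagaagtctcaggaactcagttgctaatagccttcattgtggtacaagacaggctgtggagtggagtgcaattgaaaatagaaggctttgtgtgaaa
Sema6d, upstream start, chr2:124089719-124090018, plus strand: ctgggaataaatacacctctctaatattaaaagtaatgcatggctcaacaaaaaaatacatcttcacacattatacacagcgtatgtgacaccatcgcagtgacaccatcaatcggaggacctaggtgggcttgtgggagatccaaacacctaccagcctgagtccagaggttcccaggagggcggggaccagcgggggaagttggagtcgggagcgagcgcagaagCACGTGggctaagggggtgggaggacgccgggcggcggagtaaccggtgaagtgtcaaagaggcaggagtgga
Sema6d, downstream start, chr2:124653331-124653630, plus strand: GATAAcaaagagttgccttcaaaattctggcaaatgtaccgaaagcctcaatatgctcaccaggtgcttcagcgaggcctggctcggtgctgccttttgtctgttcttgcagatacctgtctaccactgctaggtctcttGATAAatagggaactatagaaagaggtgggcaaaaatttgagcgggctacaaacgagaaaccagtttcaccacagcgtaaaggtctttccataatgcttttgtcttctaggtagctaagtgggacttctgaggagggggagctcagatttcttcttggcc
Sema3c, chr5:17574566-17574865, plus strand: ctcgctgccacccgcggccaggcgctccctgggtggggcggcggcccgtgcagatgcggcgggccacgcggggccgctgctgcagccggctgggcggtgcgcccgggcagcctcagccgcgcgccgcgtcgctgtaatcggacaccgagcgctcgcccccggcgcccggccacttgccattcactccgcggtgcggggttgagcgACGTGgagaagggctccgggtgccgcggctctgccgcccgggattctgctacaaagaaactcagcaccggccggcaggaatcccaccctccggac
Plxna2, chr1:194619579-194619878, plus strand: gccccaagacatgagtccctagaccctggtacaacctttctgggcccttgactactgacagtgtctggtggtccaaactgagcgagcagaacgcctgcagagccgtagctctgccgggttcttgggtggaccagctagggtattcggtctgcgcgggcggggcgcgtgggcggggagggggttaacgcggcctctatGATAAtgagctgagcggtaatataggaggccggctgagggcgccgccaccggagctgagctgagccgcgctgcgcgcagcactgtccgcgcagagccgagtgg
The Sema3a entry was poor in G and C, at 41.3%, while the Sema3c entry held 75.7% and the Plxna2 entry 64.7%. The median was 64.0% over the 9 entries and 52.7% over all 32851 promoters of the table. GATAA stood in 3 of the 9 entries, those of Plxna2, Plxnd1 and the downstream start of Sema6d, or 33.3%, against 25.4% of all promoters. ACGTG stood in 2 of the 9, those of Sema3c and the upstream start of Sema6d, or 22.2%, against 19.6% of all. These matches are a description of the letters in the windows.

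The arrays were alike in their medians, between 6.65 and 6.71, and markers of the working heart were bright: the 11 measured cardiomyocyte markers had a median level at the 99.1 percentile of all clusters. KO replicate 1 stood apart from the other hearts. Its 12 genes induced by low oxygen lay on average 1.76 above the WT mean, against 0.42 and 0.25 in KO replicates 2 and 3, and its 8 measured erythroid markers lay 1.18 above, against -0.11 and -0.06. It held the highest or the lowest value of the 6 hearts in 51.5% of all 28767 clusters and for 5 of the 10 genes described here. Its part in the results below was not tested as a cause. Values without it are given beside many, though not all, of the differences that move with it. The targeted gene Itgb1 was at 11.53, 11.42 and 11.65 in KO replicates 1 to 3, against 11.76, 11.80 and 11.78 in WT replicates 1 to 3. The difference was -0.25 ± 0.09 (SE), with an unadjusted p of 0.0235 and an adjusted p of 0.797 in limma, and whether the probes lie in the deleted part is not given.

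None of the 10 genes passed the test of KO against WT. Limma with Benjamini-Hochberg adjustment over all 28767 clusters called 0 of the 10 genes and 0% of all clusters, and at an unadjusted p under 0.05 there were 0 of the 10, against 5.93% of all clusters (3.06% higher and 2.87% lower in KO). In the alternative fits that count was 0 in 7, 1 in 6 and 2 in 1, the last without KO replicate 3, where 9.43% of all clusters had such a p. The mean was higher in the KO hearts for 4 genes and lower for 6, and of all clusters 46.5% had a higher and 53.5% a lower KO mean. The median difference of the 10 genes was -0.02, against -0.01 over all clusters. For 2 genes the KO and WT hearts did not overlap, Sema3a with every KO heart below and Sema6d with every KO heart above, while 12.6% of all clusters did not overlap (6.01% with KO above and 6.61% with KO below). The 95% interval of limma spanned 0 for all 10 genes and lay within a 1.5-fold change either way for 9 of them, all but Sema3c. Precision was limited by having 3 arrays in each group.

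**Figure D1:**
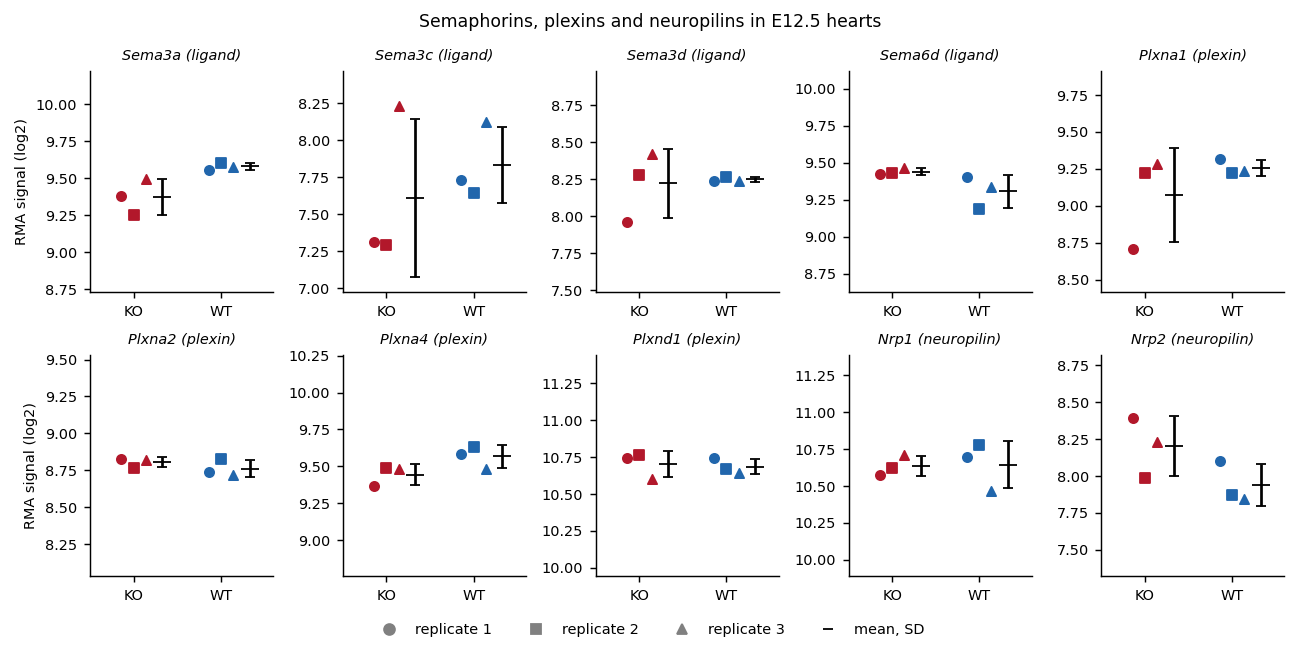
Each panel plots the log2 RMA signal of 1 gene in the 3 KO hearts (red, left) and the 3 WT hearts (blue, right), with the replicate number as the marker shape and the mean with its SD in black; every panel spans 1.5 log2 units. The 3 red points lie below the blue points for Sema3a and above them for Sema6d, KO replicate 1 is far below the rest for Plxna1, and replicate 3 of both groups is high for Sema3c.

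Among the ligands, Sema3a, which repels axons and patterns the sympathetic nerves of the mouse heart through Nrp1 and A-type plexins, was at 9.38, 9.25 and 9.50 in KO replicates 1 to 3. It was at 9.56, 9.61 and 9.58 in WT replicates 1 to 3. All KO hearts lay below all WT hearts, by 0.06 at the nearest pair, and the KO hearts were the more spread, at 9.38 ± 0.12 (SD, n = 3) against 9.58 ± 0.02 (SD, n = 3) in WT. The difference of -0.21 ± 0.09 (SE) left 86.7% of the WT signal, with a 95% interval from -0.42 to 0.01, and it did not pass (limma, unadjusted p = 0.0553, adjusted p = 0.797). An exact two-sided permutation test over the 6 hearts gave p = 0.1, below which this design cannot go. Without KO replicate 1, the heart that stood apart, the difference was also -0.21, and without KO replicate 2, the lowest heart, it was -0.14.

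Sema3a followed Itgb1 from heart to heart. The order of the 6 hearts was the same for both genes, lowest in KO replicate 2, then KO replicates 1 and 3, then WT replicates 1, 3 and 2. This order was found in 19 of the 28767 clusters, or 0.066%, with those of Itgb1 itself and Sema3a among them. Any single order of 6 hearts is rare. The order among the WT hearts rested on small steps, with a SD of 0.02 in WT for each gene. The deviations of Sema3a from its own mean over the 6 hearts differed from those of Itgb1 by a root mean square of 0.024, and by this measure Sema3a was rank 1 of 19932 genes. This likeness was noticed after the values were seen, over 6 hearts, and part of it is the difference between KO and WT that both genes share. The rank was 1 to 3 without any other single heart and 33 without KO replicate 2, the heart lowest in both. Next among the 10 genes was Plxna4, at rank 1046 with a root mean square of 0.11. Nrp1 was at rank 6314. Whether the probes of Sema3a and Itgb1 resemble each other or lie close together on the array was not analysed here, so the likeness is one of array signals.

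**Figure D2:**
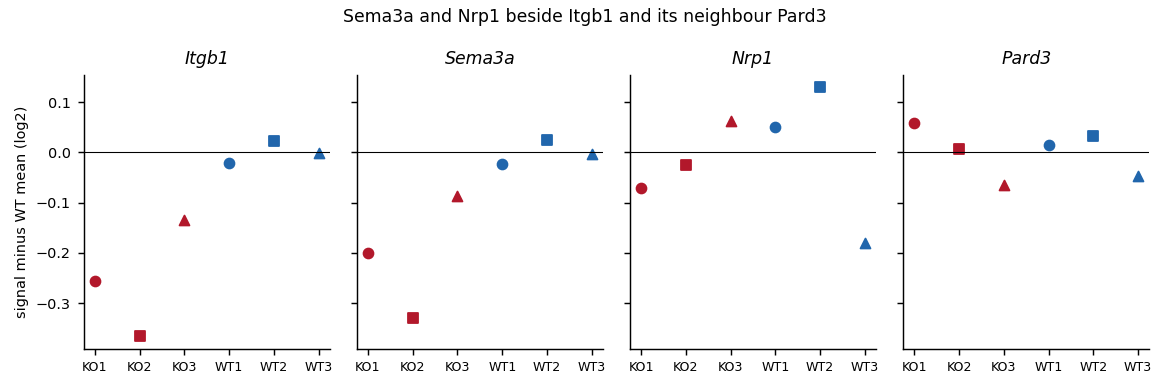
The 4 panels plot the signal of Itgb1, Sema3a, Nrp1 and Pard3 in each heart as its distance from the mean of the WT hearts (log2), KO hearts in red at the left of each panel and WT hearts in blue at the right. Itgb1 and Sema3a show the same order of hearts with KO replicate 2 lowest, while the KO and WT hearts of Nrp1 and Pard3 overlap.

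Sema3c, the ligand whose loss in the mouse interrupts outflow tract division, was at 7.31, 7.29 and 8.23 in KO replicates 1 to 3. Its WT values were 7.73, 7.65 and 8.12. The groups overlapped, since KO replicate 3 was the highest of all hearts and KO replicates 1 and 2 were the lowest. The means were 7.61 ± 0.54 in KO and 7.83 ± 0.26 in WT hearts (SD, n = 3 each), a difference of -0.22 ± 0.26 (SE) with a 95% interval from -0.83 to 0.38. Its SD over the 6 hearts, 0.40, was the largest of the 10 genes and lay at the 96.8 percentile of all clusters. The difference depended on which heart was in: it was -0.06 without KO replicate 2, -0.07 without KO replicate 1, -0.08 without WT replicate 3 and -0.53 without KO replicate 3.

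Many markers of the outflow tract and the cushions also stood high in replicate 3 of both groups. Of 14 measured outflow transcription factors 8 were highest in replicate 3 of each group, and Nkx2-5, Foxc1, Foxc2, Hand2, Mef2c and Hes1 were not. Of 11 cushion mesenchyme and valve markers 9 were, and Prrx2 and Acan were not. Isl1, a transcription factor of the progenitors that build the outflow tract, was at 5.42, 5.67 and 6.52 in KO and at 5.03, 5.06 and 6.36 in WT replicates 1 to 3. It was picked after the values were seen. Isl1 was dim, at the 33.7 percentile of all clusters, and its SD over the 6 hearts was at the 99.1 percentile. The mean of the 11 cushion markers was 8.22, 8.31 and 8.75 in KO and 8.16, 7.86 and 8.73 in WT replicates 1 to 3. In KO replicates 1 and 2 Isl1 and the cushion mean stood above their level in WT replicates 1 and 2, whereas Sema3c stood below its own. By the mean of those hearts 9 of the 11 cushion markers were higher in KO, and Prrx2 and Col2a1 were lower, as Sema3c was. Of the 14 outflow transcription factors 10 were higher by that mean and 4 were lower, namely Nkx2-5, Foxc1, Hand2 and Sox4. How many of all clusters show either pattern, by replicate 3 or by replicates 1 and 2, was not counted. Whether these counts are particular to the marker lists is therefore not known. Fewer cells of a type and less RNA per cell cannot be told apart in whole hearts, and the part of the marker content in the Sema3c values was not tested.

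**Figure D3:**
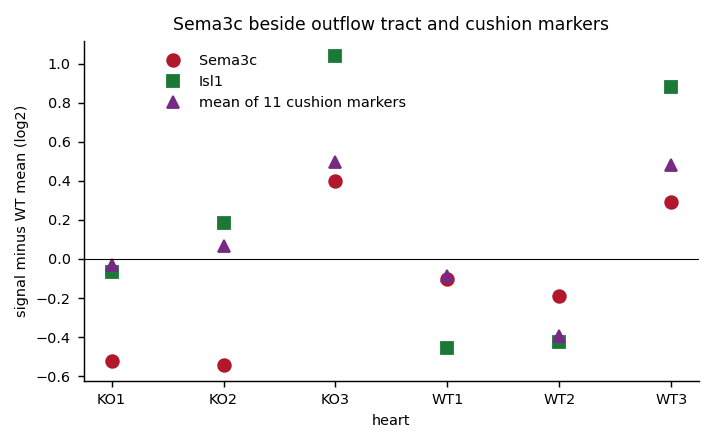
The points show Sema3c (red circles), Isl1 (green squares) and the mean of 11 cushion markers (purple triangles) in each heart as the distance from the WT mean (log2), KO hearts at the left and WT hearts at the right. Replicate 3 is high for all of them in both groups, and in KO replicates 1 and 2 Sema3c lies below both marker measures. Isl1 was picked after the values were seen.

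Sema3d, which in the mouse guides endothelial cells at the pulmonary veins, was at 7.96, 8.28 and 8.42 in KO and at 8.24, 8.27 and 8.24 in WT replicates 1 to 3. KO replicate 1 lay below and KO replicates 2 and 3 above the 3 WT hearts, which were within a SD of 0.02 of each other. The difference was -0.03 ± 0.12 (SE), and it was 0.10 without KO replicate 1 with the opposite sign. Sema6d, the membrane-bound ligand of plexin A1 that acts on chamber growth and trabeculation in the chick heart, was at 9.43, 9.43 and 9.47 in KO replicates 1 to 3. In WT replicates 1 to 3 it was at 9.40, 9.18 and 9.34. All KO hearts lay above all WT hearts, by 0.02 at the nearest pair. The difference of 0.13 ± 0.09 (SE), or 109.6% of the WT signal, did not pass (limma, unadjusted p = 0.178, adjusted p = 0.801), and it was 0.07 without WT replicate 2, the lowest heart.

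Sema3a, Sema3c and Sema3d lie on chromosome 5, and their nearest measured neighbours were read beside them. Beside Sema3a stand Sema3d and Speer3, the last at 0.13 ± 0.14 (difference, SE), or 0.04 without KO replicate 1. Beside Sema3c stand the hepatocyte growth factor gene Hgf, with a difference of 0.25 ± 0.18, and the fatty acid transporter gene Cd36, at 0.10 ± 0.14, or 0.18 without KO replicate 1. The glutamate receptor gene Grm3, the other neighbour of Sema3d, differed by -0.02 ± 0.16, and by 0.09 without KO replicate 1. None of these passed limma's test.

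Among the plexins, Plxna1, a receptor of Sema6d and of class 3 semaphorins, was at 8.71, 9.22 and 9.29 in KO and at 9.32, 9.22 and 9.24 in WT replicates 1 to 3. KO replicate 1 lay 0.51 below the lowest of the other 5 hearts, which spanned only 0.10. The difference of -0.19 ± 0.15 (SE) was -0.004 without that heart. Plxna4, which carries the Sema3a signal with Nrp1 in mouse neurons, was at 9.36, 9.49 and 9.48 in KO and at 9.59, 9.63 and 9.48 in WT replicates 1 to 3. The groups overlapped only at WT replicate 3, and the difference was -0.12 ± 0.09 (SE), or -0.08 without KO replicate 1.

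Plxna2 and Plxnd1 varied little. Plxna2, found on cardiac neural crest cells of the mouse, was at 8.83, 8.77 and 8.82 in KO and at 8.74, 8.83 and 8.72 in WT replicates 1 to 3. Its SD over the 6 hearts, 0.05, was at the 3.32 percentile of all clusters, and the 95% interval of its difference of 0.04 ± 0.08 (SE) ran from -0.14 to 0.23. Plxnd1, the plexin of endothelial cells, which also binds Sema3e without a neuropilin, was at 10.75, 10.76 and 10.60 in KO and at 10.74, 10.67 and 10.65 in WT replicates 1 to 3. Its difference was 0.02 ± 0.09 (SE), with an interval from -0.18 to 0.22. Changes beyond 0.881-fold or 1.16-fold lay outside the interval of Plxnd1.

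Nrp1, the receptor that Sema3a shares with the vascular growth factor VEGF-A, lies next to Itgb1 in the genome, and its KO and WT hearts overlapped. It was at 10.57, 10.62 and 10.71 in KO and at 10.70, 10.78 and 10.46 in WT replicates 1 to 3. The WT hearts held both the highest and the lowest value, and all KO hearts lay between them. The difference was -0.01 ± 0.10 (SE), with a 95% interval from -0.26 to 0.23, or 0.838-fold to 1.17-fold.

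The other measured genes around Itgb1 on chromosome 8 were read beside it. On the side of Nrp1 these were the cell polarity gene Pard3, with a difference of 0.00 ± 0.08 (SE) or -0.03 without KO replicate 1, the uncharacterised Gm9909, at 0.37 ± 0.18 or 0.29 without KO replicate 1, Rbm34, at -0.11 ± 0.17 or 0.08 without KO replicate 1, and the mitochondrial import receptor gene Tomm20, at 0.04 ± 0.11 or 0.09 without that heart. The cluster number of Tomm20 is far from those of the other genes here. Whether its probes read this place in the genome was not analysed. On the other side only Ccdc7a was measured. It was at 2.73, 2.91 and 2.87 in KO and at 3.19, 3.24 and 3.12 in WT replicates 1 to 3, a difference of -0.35 ± 0.09 (SE; limma, unadjusted p = 0.00477, adjusted p = 0.797). All its KO hearts lay below all WT hearts, as in 6.61% of all clusters, at a level at the 2.52 percentile of all clusters. Nrp1 and Pard3, at the 94.8 and 84.6 percentile, overlapped between the groups.

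Nrp2, the neuropilin of Sema3f and Sema3c and a partner of the VEGF-C receptor, was at 8.39, 7.99 and 8.23 in KO and at 8.10, 7.87 and 7.84 in WT replicates 1 to 3. KO replicate 2 lay below WT replicate 1, so the groups overlapped. The difference of 0.26 ± 0.13 (SE), or 120.1% of the WT signal, did not pass (limma, unadjusted p = 0.0764, adjusted p = 0.797). It was 0.17 without KO replicate 1, the highest heart. Flt4, which encodes that VEGF-C receptor, was at 8.38, 8.19 and 8.15 in KO and at 8.18, 7.94 and 7.88 in WT replicates 1 to 3, with a difference of 0.24 ± 0.11 (SE; limma, unadjusted p = 0.0699, adjusted p = 0.797). Without KO replicate 1 the difference of Flt4 was 0.17. The KO and WT hearts of Flt4 overlapped at WT replicate 1, as those of Nrp2 did.

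**Figure D4:**
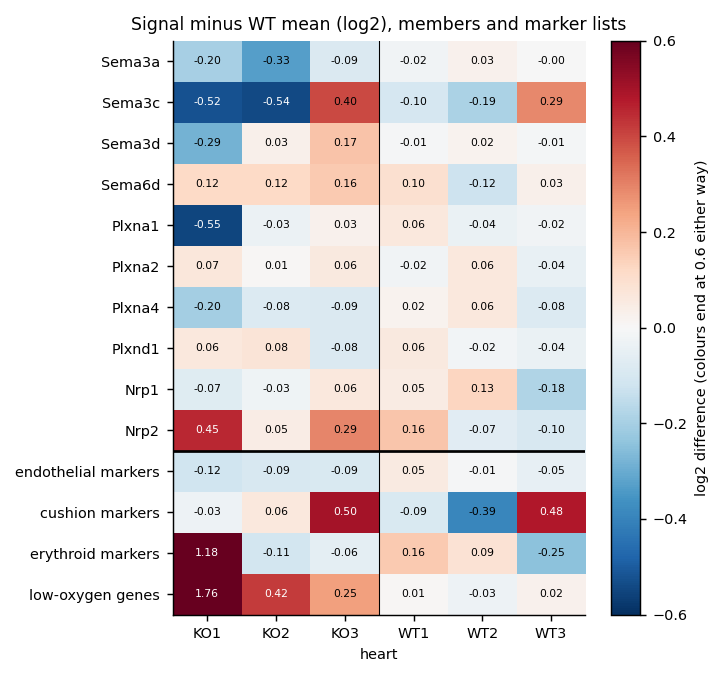
Each cell gives the signal of a gene, or the mean signal of a marker list, in 1 heart as the distance from the WT mean (log2), with KO hearts in the left columns and WT hearts in the right columns; the colour scale ends at 0.6 either way. KO replicate 1 holds the lowest Plxna1, Sema3d and Plxna4 and the highest Nrp2, in the heart where low-oxygen genes stand at 1.76 and erythroid markers at 1.18.

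Markers of the cells that carry these receptors were set beside them. Of 12 endothelial markers 3 had a higher and 9 a lower KO mean, 0 passed, and their mean was 9.35, 9.38 and 9.38 in KO and 9.53, 9.47 and 9.42 in WT replicates 1 to 3. In 2 of the 12 all KO hearts lay below all WT hearts, against 6.61% of all clusters. Kdr, the main VEGF-A receptor and a partner of Nrp1, is not in that list. It averaged 9.97 ± 0.04 in KO and 10.09 ± 0.07 in WT hearts (SD, n = 3 each), also with no overlap. Its difference was -0.12 ± 0.08 (SE; limma, unadjusted p = 0.181, adjusted p = 0.803). The mean difference of the 12 endothelial markers was -0.10, beside -0.01 for Nrp1 and 0.02 for Plxnd1 (0.02 and -0.0035 without KO replicate 1). Endothelial cells express both, and whether these 2 genes differ from the list was not tested. The 11 measured neural crest and neuronal markers were dim, with a median level at the 37.0 percentile and list means from 5.89 to 5.92 in KO and from 5.86 to 6.02 in WT hearts. Epicardial markers had list means of 8.44, 8.44 and 8.64 in KO and 8.51, 8.50 and 8.54 in WT replicates 1 to 3, with 5 of 8 markers higher and 3 lower. The part of these cell types in the values of the 10 genes was not tested.

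By the measure used for Sema3a and Itgb1, the genes closest in pattern to the 3 most variable members were also read, among 10844 other genes at or above the median level. Closest to Sema3c were Emb (root mean square 0.12), Mybpc1 (0.13) and Mmp23 (0.15). Closest to Plxna1 were Extl3 (0.018), Ralgapb (0.020) and Klhl20 (0.021), each low in KO replicate 1. Closest to Nrp2 were Myadm (0.051), Ugcg (0.059) and Uhrf1bp1l (0.060). Such lists over 6 hearts describe likeness only.

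The rest of the family was measured in full, with 16 further semaphorins and 5 further plexins, and 0 of these 21 genes passed limma's adjusted test. Of the 16 semaphorins 13 had a higher KO mean and 3 a lower one, with a median difference of 0.09, but without KO replicate 1 the split was 9 higher and 7 lower. Sema4g, a membrane semaphorin, had the lowest p of the 16. It was at 6.98, 6.58 and 6.43 in KO and at 6.08, 5.88 and 6.55 in WT replicates 1 to 3, a difference of 0.49 ± 0.20 (SE; limma, unadjusted p = 0.0422, adjusted p = 0.797). Its groups overlapped because WT replicate 3 lay above KO replicate 3. Sema3e, the direct ligand of Plxnd1, was at 7.24, 6.14 and 6.18 in KO and at 6.15, 6.17 and 6.21 in WT replicates 1 to 3. Its difference of 0.34 ± 0.27 (SE) was -0.02 without KO replicate 1, the heart that alone was high. Sema4d, a membrane ligand of B-type plexins, was likewise highest in KO replicate 1, and its difference of 0.11 ± 0.22 became -0.16 without it.

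Sema7a is the semaphorin known to bind β1 integrins, and Plxnc1 is its plexin. Sema7a was at 6.51, 6.58 and 6.50 in KO and at 6.54, 6.35 and 6.42 in WT replicates 1 to 3, a difference of 0.09 ± 0.09 (SE). Plxnc1 was at 8.85, 8.61 and 8.64 in KO and at 8.98, 8.90 and 8.81 in WT replicates 1 to 3, a difference of -0.20 ± 0.10 (SE; limma, unadjusted p = 0.0785, adjusted p = 0.797). Its groups overlapped only between KO replicate 1 and WT replicate 3. Plxnb2 differed by 0.09 ± 0.09, and the other 3 plexins, Plxna3, Plxnb1 and Plxnb3, by 0.05, -0.08 and 0.01, with Plxnb1 at 0.05 and Plxnb3 at 0.02 without KO replicate 1. Over all 31 semaphorins, plexins and neuropilins, 20 had a higher and 11 a lower KO mean, and 18 were higher without KO replicate 1. Of all clusters 46.5% had a higher KO mean. In limma 1 of the 31 genes had an unadjusted p under 0.05, and 0 passed.

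**Figure D5:**
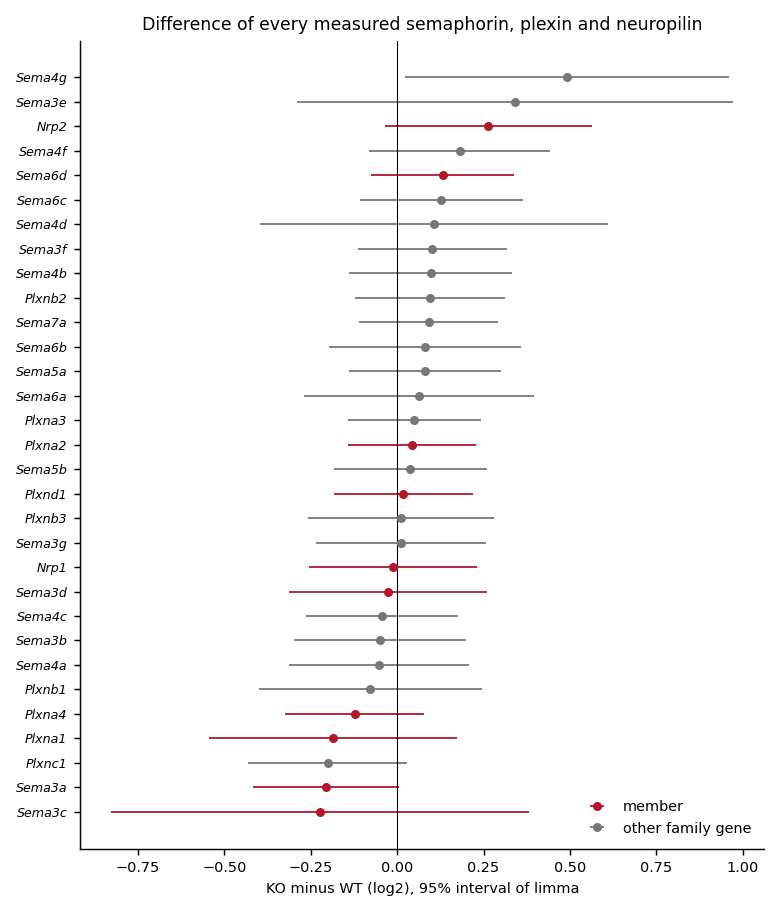
The plot shows the difference of KO minus WT (log2) with limma's 95% interval for all 31 measured semaphorins, plexins and neuropilins, ordered by size, with the 10 genes described here in red and the other 21 in grey. The intervals of the 10 genes all span 0, and of the 31 only that of Sema4g does not.

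Downstream of the plexins, 36 of 37 listed effector genes were measured, of which 18 had a higher and 18 a lower KO mean, with a median difference of 0.00 and 0 past the adjusted test. The lowest p belonged to Rnd2, a small GTPase of the Rnd group that binds plexins. It was at 8.42, 8.61 and 8.35 in KO and at 8.56, 8.75 and 8.92 in WT replicates 1 to 3, a difference of -0.29 ± 0.12 (SE; limma, unadjusted p = 0.0444, adjusted p = 0.797). Its groups overlapped between KO replicate 2 and WT replicate 1. Cdk5, a kinase of the Sema3a response in neurons, differed by -0.21 ± 0.11, with all KO hearts below all WT hearts, and by -0.11 without KO replicate 1. Mical2 and Mical3, of the family of plexin-binding enzymes that take actin filaments apart, differed by 0.21 ± 0.12 and 0.20 ± 0.13, and by 0.08 and 0.06 without KO replicate 1. All KO hearts of Mical2 lay above all WT hearts. Of the 36 effectors 1 had no overlap in each direction, against 6.01% of all clusters with KO above and 6.61% with KO below. Among 8 cell surface partners, 5 higher and 3 lower by their means, the lowest p belonged to the adaptor gene Tyrobp, at 0.21 ± 0.11, and the hepatocyte growth factor receptor gene Met, at 0.34 ± 0.21, or 0.09 without KO replicate 1. Macrophages also express Tyrobp, and all 10 measured macrophage markers had a higher KO mean, also without KO replicate 1. Of all clusters 46.5% had a higher KO mean. The macrophage list mean ran from 6.87 to 7.08 in KO and from 6.69 to 6.78 in WT hearts. In 3 of the 10 markers all KO hearts lay above all WT hearts, against 6.01% of all clusters. Cybb, an oxidase subunit gene of phagocytes, differed by 0.65 ± 0.11 (SE) and Mpeg1, a macrophage perforin gene, by 0.73 ± 0.12, and neither passed (limma, unadjusted p = 0.000327 and 0.000406, adjusted p = 0.797). The part of macrophages in the Tyrobp value was not tested.

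Transcription factors of the outflow tract were measured for 14 of 15 listed genes, with 10 higher and 4 lower by their means and 0 past the adjusted test. Gata6, which acts on Sema3c and Plxna2, was at 10.81, 10.75 and 10.91 in KO and at 10.59, 10.43 and 10.77 in WT replicates 1 to 3, a difference of 0.22 ± 0.11 (SE; limma, unadjusted p = 0.0750, adjusted p = 0.797). Its hearts overlapped only between KO replicate 2 and WT replicate 3. The cardiac factor genes Nkx2-5 and Mef2c differed by -0.17 ± 0.08 and 0.17 ± 0.08, each with no overlap between the groups. Foxc1, a factor of the outflow mesenchyme, differed by -0.17 ± 0.09, also with no overlap. Hand2 did not overlap either, at -0.21 ± 0.13, or -0.07 without KO replicate 1. Of the 14 factors 1 had all KO hearts above and 3 had all KO hearts below the WT hearts. The shares over all clusters were 6.01% and 6.61%.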

How the data were processed

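RNA of 3 KO and 3 WT hearts was read on 1 array each. Per the submitters' processing notes, the authors made the deposited log2 values with RMA, a method that removes background, gives all arrays 1 distribution and fits 1 value per cluster from its probes. Its version and settings, the probe annotation and filters are not given in the sources used. The table held 28767 transcript clusters, of which 21776 had 1 symbol in the platform annotation, 1618 several and 5373 none; 21686 matched a GRCm38.p6 gene table by Entrez identifier, used for current symbols and neighbours. A gene with several clusters was read from the brightest by mean; each of the 10 genes had 1.

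KO was compared with WT by limma 3.58.1 in R 4.3.3 (lmFit and eBayes, two-sided, no covariate, no filter), with Benjamini-Hochberg adjustment over all clusters and a threshold of 0.05. Exact permutation tests were two-sided. The fit was tested on simulated data. The 10 genes and all lists were chosen with earlier results of these data known. Of 202 list entries 194 were measured. Genes were named by rule: the 10 genes, Itgb1 and its neighbours within 5 measured genes, neighbours of the Sema3 genes, up to 4 list members of lowest p, all semaphorins and plexins, and the 3 genes closest in pattern to the 3 most variable members. The likeness of Sema3a to Itgb1 and the values of Isl1 were picked after the values were seen. Alternatives were another normalization, a filter, another variance model, array weights, a replicate block and leaving out each heart. Promoter sequences are from RefSeq.

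Samples with the same replicate number did not deviate together (correlations over all clusters of -0.04, -0.03 and -0.06), so the numbers were not taken to pair hearts.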

Additional observations from a re-analysis of the deposited data

How the results depend on the processing

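None of the 10 genes passed in any of the 14 alternative fits, in which the lowest adjusted p was 0.263, that of Sema3a with array weights. Over all clusters the count past the threshold was 0 to 1 when single hearts were left out, with 1 cluster without KO replicate 1, and 0 in the other alternatives. With the replicate block 0 clusters and 0 of the 10 genes passed, and the differences were those given above; the block changed no call. The signs of Sema3a, Sema3c, Sema6d, Plxna1, Plxna2, Plxna4 and Nrp2 held in all 14 fits, with ranges of -0.29 to -0.14, -0.53 to -0.06, 0.07 to 0.18, -0.29 to -0.004, 0.01 to 0.08, -0.17 to -0.08 and 0.11 to 0.37. Those of the other 3 did not. Sema3d was at 0.0035 with cyclic loess, 0.020 with array weights and ranged from -0.13 to 0.10 without single hearts, the last without KO replicate 1. Nrp1 was at 0.0073 with cyclic loess, 0.019 without KO replicate 1, 0.014 without WT replicate 1 and from -0.10 to 0.054 over all hearts left out singly, the last without WT replicate 2. Plxnd1 was at -0.0035 without KO replicate 1, -0.012 without KO replicate 2 and -0.0012 without WT replicate 3. With array weights Plxna1 stood at -0.07 and Nrp2 at 0.11. The rank of Sema3a by likeness to Itgb1, examined after its values were seen, was 1 with repeated quantile normalization, with centring or with Pearson correlation as the measure, and 2 with cyclic loess. No other cluster of any of the 10 genes existed to be tried. The number of arrays limits all values, and signal over background of single probes was not analysed here.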

Other observations

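Other guidance families of the heart were read in the same fit. Of 18 measured slit, netrin and ephrin genes 12 had a higher and 6 a lower KO mean, and 0 passed. Robo2, a receptor of slit proteins, was at 7.91, 7.82 and 8.85 in KO and at 7.28, 6.99 and 8.37 in WT replicates 1 to 3, a difference of 0.64 ± 0.39 (SE). Like Sema3c it was highest in replicate 3 of both groups, but unlike Sema3c it stood higher in KO replicates 1 and 2 than in WT replicates 1 and 2. Ntn4, a netrin of basement membranes, differed by 0.36 ± 0.26, or 0.59 without KO replicate 1, and the slit genes Slit3 and Slit2 by 0.19 ± 0.14 and -0.11 ± 0.09.

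Of the 5 measured VEGF family ligands, some of which share the neuropilins with semaphorins, Vegfa and Pgf were highest in KO replicate 1 and Vegfb, Vegfc and Vegfd were not. Vegfa was at 11.21, 9.95 and 9.73 in KO and at 9.73, 9.71 and 9.70 in WT replicates 1 to 3, and its difference of 0.58 ± 0.34 (SE) was 0.13 without KO replicate 1. Pgf, the placental growth factor gene, was at 8.33, 7.07 and 7.05 in KO and at 6.85, 6.72 and 6.90 in WT replicates 1 to 3. All KO hearts of Pgf lay above all WT hearts, as in 6.01% of all clusters. Its difference of 0.66 ± 0.32 was 0.23 without KO replicate 1. Over the 8 VEGF ligands and receptors 6 had a higher KO mean, and 4 without that heart. The endothelial fenestra gene Plvap differed by -0.39 ± 0.10 and Dbh, which encodes the enzyme that makes noradrenaline, by -0.47 ± 0.11. Both had all KO hearts below all WT hearts, as 6.61% of all clusters had, and an adjusted p of 0.797 in limma. Dbh was dim, at the 27.4 percentile. Of the 11 measured neural crest and neuronal markers, Dbh among them, 7 had a higher and 4 a lower KO mean, or 5 and 6 without KO replicate 1.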
